A study of Mus musculus with 2 samples.

Results

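MT and ORR1 elements are the rodent branch of the mammalian apparent LTR retrotransposons (MaLR). They were selected by name from a table of transposable element families as those with MaLR as superfamily and a name starting with ORR1 or with MT and a further letter. This gave 44 of 634 families, 19 MT and 25 ORR1, out of 102 MaLR families in all. Of the 44, 21 are long terminal repeats (LTRs) and 23 are internal parts (names ending in -int). The data came from 2 libraries of mouse embryonic stem (ES) cells that share a Daxx gene flanked by loxP sites, the RosaCreERT transgene and a B6/129 background, all grown on mitomycin-treated feeder cells. The Daxx-deleted culture was given 4-hydroxytamoxifen, which switches on the Cre recombinase, at 1 µM for 48 h and then had 3 days of recovery. The control culture was given the solvent DMSO, so exposure to the drug and to active Cre cannot be told apart from loss of Daxx. Daxx is a chaperone that places the histone variant H3.3 on DNA, and the study asked whether endogenous retroviruses become active without it.

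MaLR elements are LTR retrotransposons related to the ERVL group of endogenous retroviruses. They encode no proteins of their own: the sequence between the LTRs is noncoding, and the elements are thought to have been copied by enzymes of ERVL relatives. The LTR carries the promoter, and in mouse oocytes and early embryos MT and ORR1 LTRs start many transcripts, including the first exons of host genes. Subtype letters follow age, with A the youngest and E the oldest in the table. The young MTA copies are still alike in sequence, whereas copies of the old subtypes have diverged.

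The level of a family is given in RPKM, reads scaled by element length and by the reads of the library in exons of protein-coding genes. A value sums copies scattered over the genome and belongs to no single locus. With 1 library in each group there is no replicate error and no p-value, and a ratio compares these libraries only. The depth of the libraries is unknown, and no counting interval can be attached. The table holds no genes, so ES cell markers, feeder cell markers and Daxx itself were not analysed here. In RNA from whole cultures, a higher level in more of the cells and more transcripts in a few cells cannot be told apart.

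MT and ORR1 families were slightly higher in the Daxx-deleted library, by about as much as the median family of the table. Their median level was 0.0317 RPKM in the Daxx-deleted library and 0.0290 RPKM in the control, over the 43 members that passed a floor of 0.01 RPKM on average and 100 copies. Over all 436 families at that floor the median was 0.0350 RPKM in the Daxx-deleted library and 0.0291 RPKM in the control. Changes are given as log2 of the Daxx-deleted value over the control value, after adding 0.001 RPKM to each, which understates the change of low families. The members had a median log2 change of 0.18, and all families at the floor also had 0.18. Of the 43 members, 39 (90.7%) were higher in value after deletion, against a background of 78.9% of all families, and 22 lay above the median family. The ratio of the deposited values ran from 0.928 for ORR1A0-int to 1.83 for MTB_Mm-int.

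Few members reached a larger change. At least 1.5-fold higher were 3 of 43 members (6.98%), MTB_Mm-int, MTEb-int and ORR1A3-int, where 15.1% of all families passed the same threshold. At least 1.5-fold lower were 0 members, where the background was 1.38%. At 2-fold, 0 members were higher and 0 were lower, with 5.28% of all families higher and 0.459% lower. Past a log2 change of 0.32, 8 members were higher, against 31.0% of all families, and 0 were lower by that size, against 3.44%. At this floor the shares of members past these thresholds were thus below those of all families. With a floor of 0.05 RPKM that was not so, as 1 of 8 members was at least 1.5-fold higher, against 12.4% of all families. The member outside the floor, ORR1B2-int, had the lowest level of the 44, at 0.00683 RPKM in the Daxx-deleted library and 0.00453 RPKM in the control. MTEa-int, just inside the floor, had 0.0150 RPKM in Daxx-deleted and 0.0113 RPKM in control cells.

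**Figure D1:**
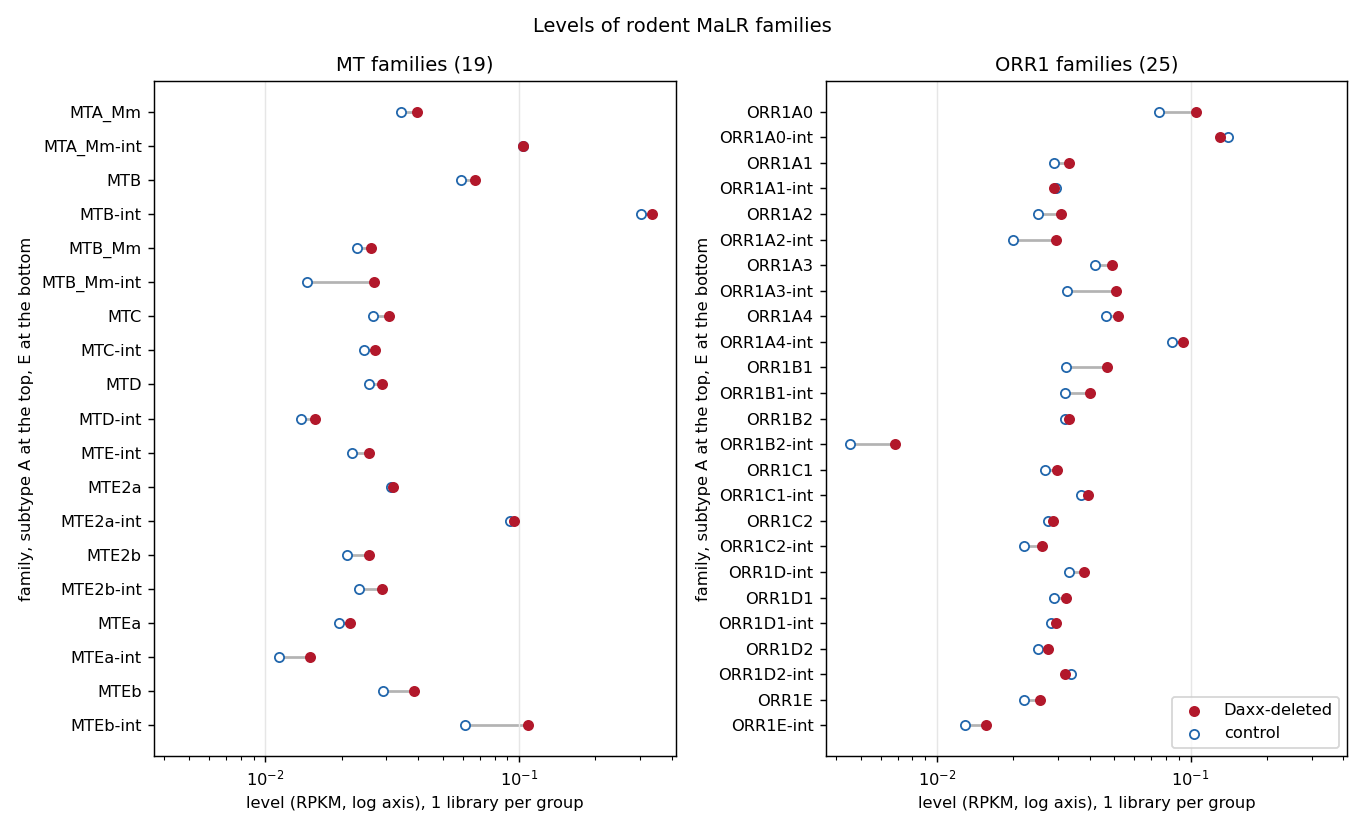
Level of each of the 44 families in RPKM on a log axis, with MT families on the left and ORR1 families on the right, each ordered from subtype A to E. Filled points are the Daxx-deleted library and open points the control library, 1 library each; the Daxx-deleted point lies to the right in 40 of the 44 families, and the highest level is that of MTB-int.

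Among the youngest MT elements, neither part of MTA_Mm stood out. The MTA_Mm LTR, a frequent promoter of oocyte transcripts with 15289 annotated copies, had 0.0397 RPKM in the Daxx-deleted library and 0.0344 RPKM in the control, a log2 change of 0.20. MTA_Mm-int had 0.104 RPKM in both libraries. The LTR was therefore close to the median family, and the internal part was level between the libraries.

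MTB has 2 named forms in the table, MTB and MTB_Mm. MTB-int held the highest level of all 44 families, at 0.334 RPKM in the Daxx-deleted library and 0.301 RPKM in the control, a ratio of 1.11 over 590 copies. Its LTR, MTB, had 0.0668 RPKM in Daxx-deleted and 0.0590 RPKM in control cells, a ratio of 1.13. MTB_Mm-int, the family with the largest ratio (1.83), had 0.0269 RPKM in the Daxx-deleted library and 0.0147 RPKM in the control, and it has the fewest copies of all members, 377. The LTR of the same name, MTB_Mm, with 4708 copies, had 0.0261 RPKM in Daxx-deleted and 0.0229 RPKM in control cells, a ratio of 1.14. The difference at MTB_Mm-int, 0.0122 RPKM, was thus not matched in size by its LTR, which differed by 0.00320 RPKM.

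The middle subtypes MTC and MTD gave even values. MTC had 0.0306 RPKM in the Daxx-deleted library and 0.0266 RPKM in the control, and MTC-int had 0.0270 RPKM in Daxx-deleted and 0.0245 RPKM in control cells. MTD, the family with the most copies (47854), had 0.0287 RPKM in Daxx-deleted and 0.0256 RPKM in control cells, and MTD-int had 0.0157 RPKM in Daxx-deleted and 0.0138 RPKM in control cells. The 4 log2 changes lay between 0.13 and 0.19, all next to the median family.

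MTE, the oldest MT subtype, has 9 families in the table. The Daxx-deleted library held the higher value of all 9, against a background of 78.9% of all families. The same held for every family at the floor of MTB, MTC, MTD, ORR1B, ORR1C and ORR1E. The median log2 change of the 9 MTE families was 0.27, and 6 lay above the median family. The range was wide, and MTEb took its top: MTEb-int had 0.108 RPKM in the Daxx-deleted library and 0.0613 RPKM in the control, a ratio of 1.76, and the MTEb LTR had 0.0384 RPKM in Daxx-deleted and 0.0292 RPKM in control cells, a ratio of 1.32. MTEb-int, with 659 copies, also had the largest difference in RPKM of all 44 families, 0.0467 RPKM. At the other end, MTE2a had 0.0317 RPKM in the Daxx-deleted library and 0.0312 RPKM in the control, and MTE2a-int had 0.0952 RPKM in Daxx-deleted and 0.0918 RPKM in control cells. Between them lay MTE2b at 0.0255 RPKM in Daxx-deleted and 0.0210 RPKM in control cells, MTE2b-int at 0.0289 RPKM in Daxx-deleted and 0.0235 RPKM in control cells, and MTE-int at 0.0256 RPKM in Daxx-deleted and 0.0220 RPKM in control cells. MTEa had 0.0215 RPKM in the Daxx-deleted library and 0.0195 RPKM in the control, and MTEa-int had a ratio of 1.32.

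The youngest ORR1 subtype, ORR1A, has 10 families, of which 8 (80%) were higher in the Daxx-deleted library, against 78.9% of all families. ORR1A0, with 2130 copies, was the LTR with the highest level of the 21 in both libraries, at 0.104 RPKM in the Daxx-deleted library and 0.0749 RPKM in the control, a ratio of 1.40. Its internal part was lower in the Daxx-deleted library: ORR1A0-int had 0.131 RPKM in the Daxx-deleted library and 0.141 RPKM in the control. ORR1A3-int had 0.0508 RPKM in Daxx-deleted and 0.0326 RPKM in control cells, a ratio of 1.56, and ORR1A2-int had 0.0295 RPKM in Daxx-deleted and 0.0199 RPKM in control cells, a ratio of 1.48. The larger ratios of this subtype were thus shared between LTRs and internal parts of different forms.

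The other ORR1A families differed less. ORR1A2 had 0.0308 RPKM in the Daxx-deleted library and 0.0249 RPKM in the control, and ORR1A3 had 0.0489 RPKM in Daxx-deleted and 0.0420 RPKM in control cells. ORR1A4 had 0.0518 RPKM in Daxx-deleted and 0.0464 RPKM in control cells, and ORR1A4-int had 0.0929 RPKM in Daxx-deleted and 0.0846 RPKM in control cells. ORR1A1 had 0.0332 RPKM in Daxx-deleted and 0.0288 RPKM in control cells, while ORR1A1-int had 0.0290 RPKM in the Daxx-deleted library and 0.0295 RPKM in the control. Over the 10 families the log2 changes ran from -0.11 to 0.63, the widest range of any ORR1 subtype, with a median of 0.20.

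The ORR1B LTRs differed between their 2 forms. ORR1B1, with 14555 copies, had 0.0470 RPKM in the Daxx-deleted library and 0.0321 RPKM in the control, a ratio of 1.46 that was the largest among the 21 LTRs. ORR1B1-int had 0.0400 RPKM in Daxx-deleted and 0.0320 RPKM in control cells, a log2 change of 0.31. ORR1B2, with the same control level of 0.0321 RPKM, had 0.0332 RPKM in the Daxx-deleted library, a ratio of 1.04. The 2 LTRs thus had the same level in the control library and different levels in the Daxx-deleted library. ORR1B2-int, the family outside the floor, had a ratio of 1.51 and a log2 change of 0.50 at its low level, so the internal parts did not follow the order of the LTRs.

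The older ORR1 subtypes, ORR1C to ORR1E, had log2 changes from -0.08 to 0.25. The 4 ORR1C families had log2 changes from 0.06 to 0.23, with ORR1C1 at 0.0297 RPKM in the Daxx-deleted library and 0.0267 RPKM in the control, and ORR1C1-int at 0.0395 RPKM in Daxx-deleted and 0.0369 RPKM in control cells. ORR1C2 had 0.0286 RPKM in Daxx-deleted and 0.0274 RPKM in control cells, and ORR1C2-int had 0.0260 RPKM in Daxx-deleted and 0.0220 RPKM in control cells. The 5 ORR1D families had a median log2 change of 0.13, and 1 of them, ORR1D2-int, had a lower value, at 0.0320 RPKM in the Daxx-deleted library and 0.0338 RPKM in the control. ORR1D1 had 0.0321 RPKM in Daxx-deleted and 0.0290 RPKM in control cells, ORR1D1-int 0.0295 RPKM in Daxx-deleted and 0.0281 RPKM in control cells, ORR1D2 0.0274 RPKM in Daxx-deleted and 0.0250 RPKM in control cells, and ORR1D-int 0.0379 RPKM in Daxx-deleted and 0.0333 RPKM in control cells. ORR1E had 0.0254 RPKM in the Daxx-deleted library and 0.0221 RPKM in the control, and ORR1E-int had 0.0156 RPKM in Daxx-deleted and 0.0129 RPKM in control cells. The log2 changes of ORR1E and ORR1E-int, 0.20 and 0.25, each lay above the median family. Of these 11 families, 0 reached a log2 change of 0.32, where 31.0% of all families did.

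Younger and older subtypes were close in their change. The 19 younger families at the floor (MTA, MTB, ORR1A and ORR1B) had a median log2 change of 0.20, and the 24 older ones (MTC to MTE and ORR1C to ORR1E) had 0.17, a difference of 0.03. Past 1.5-fold were 2 of the 19 younger families and 1 of the 24 older ones, both shares below the 15.1% of all families. Among LTRs alone, the medians were 0.20 for 10 younger and 0.15 for 11 older LTRs. Among internal parts the order was the other way, with 0.15 for 9 younger and 0.18 for 13 older parts. The subtype medians did not follow the letters: they were 0.10, 0.18, 0.16, 0.17 and 0.27 from MTA to MTE, and 0.20, 0.31, 0.12, 0.13 and 0.23 from ORR1A to ORR1E. The ratio of summed RPKM, a measure added after the values were seen, gave the younger families a smaller log2 change than the older ones, at 0.19 against 0.22. With only the families at 0.05 RPKM or more, the difference of medians was -0.29 over 8 members, so its direction depended on which families were kept. The only older families among these 8 were MTE2a-int and MTEb-int, with log2 changes of 0.05 and 0.81, so no older LTR was left.

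**Figure D2:**
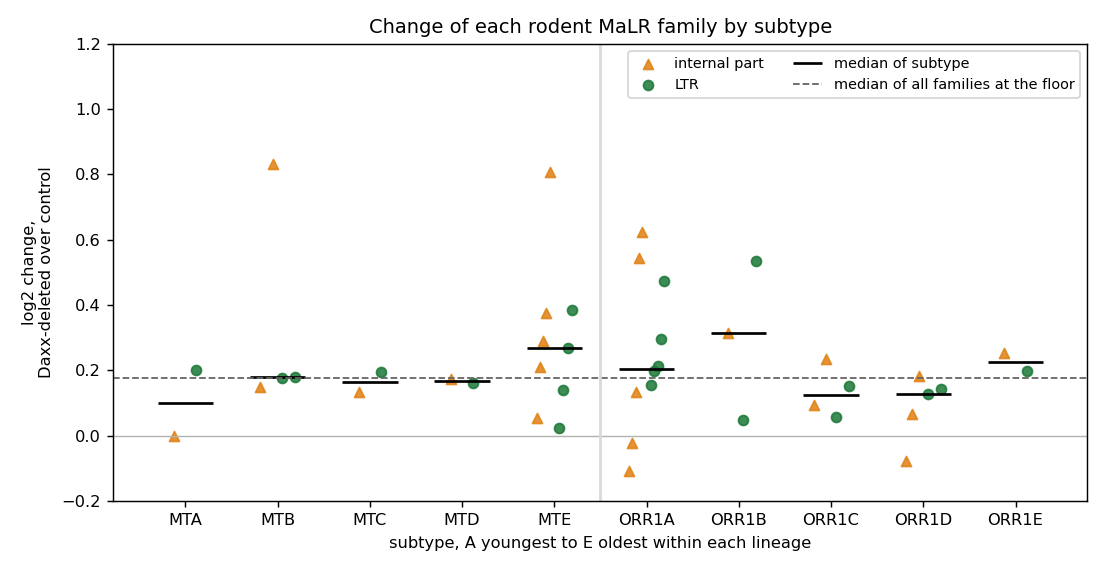
The log2 change of the Daxx-deleted over the control library for the 43 families at the floor, by subtype from A (youngest) to E (oldest) in the MT and ORR1 lineages. Triangles are internal parts, circles LTRs, short black lines subtype medians and the dashed line the median of all 436 families (0.18); the medians run between 0.10 and 0.31 without following the letters.

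Age was more visible in the levels than in the change. In the Daxx-deleted library the 10 younger LTRs ran from 0.0261 to 0.104 RPKM with a median of 0.0433 RPKM, and the 11 older LTRs from 0.0215 to 0.0384 RPKM with a median of 0.0287 RPKM. In the control the younger LTRs ran from 0.0229 to 0.0749 RPKM with a median of 0.0333 RPKM, and the older ones from 0.0195 to 0.0312 RPKM with a median of 0.0266 RPKM. The groups overlapped, with 6 of 10 younger LTRs above the highest older LTR in the Daxx-deleted library and 7 of 10 in the control. Some margins were small: in the control ORR1B1 and ORR1B2 had 0.0321 RPKM, against 0.0312 RPKM for MTE2a, the highest older LTR. Younger LTR families also had fewer copies, with a median of 7058 against 15178 for the older ones, and the part of copy number in these levels was not tested. Reads with several alignments were kept, how they were shared is not given, and their part in these levels was not tested either. The internal parts showed the same order of medians, 0.0508 RPKM for younger and 0.0289 RPKM for older parts in the Daxx-deleted library. In the control the medians were 0.0326 RPKM for younger and 0.0245 RPKM for older parts. The internal parts overlapped more. In the Daxx-deleted library only MTB-int and ORR1A0-int of the younger parts lay above the highest older part, MTEb-int at 0.108 RPKM. ORR1B2-int, a younger part with the lowest level of all 44 families, is outside the floor and not in these medians.

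Internal parts and LTRs had nearly the same median change and a different spread. The 22 internal parts at the floor had a median log2 change of 0.18 (SD across families 0.26), and the 21 LTRs had 0.18 (SD across families 0.13). All 21 LTRs were higher in value after deletion, with ratios from 1.02 for MTE2a to 1.46 for ORR1B1. Of the internal parts, 18 (81.8%) had a higher value and 4 a lower one. Higher in value were 78.9% of all families. Among other LTR-class families the share was 87.7% in the copy range of the LTRs and 81.8% in that of the internal parts. The 3 families past 1.5-fold were internal parts, 13.6% of the 22, where 15.1% of all families passed. Among the 192 other LTR-class families in the copy range of the internal parts, 23.4% passed. Internal parts had fewer copies, a median of 1338 against 14289 for the LTRs, and the part of copy number in the wider spread was not tested. Other LTR-class families spread more widely in both copy ranges. The SD of their log2 changes was 0.43 over 192 families within the copy range of the internal parts, with a median of 1247 copies. It was 0.46 over 65 families within the copy range of the LTRs. Those 65 had a median of only 3211 copies, so they are not matched to the LTRs in copy number. Both sets include MERVL-int and MT2_Mm, with log2 changes of 2.30 and 1.56.

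Within a subtype the LTR and internal part often differed. The 21 LTRs each have an internal part of the same name, and MTE-int and ORR1D-int have no LTR of their own name. In 20 of these pairs both parts passed the floor. The internal part had the larger log2 change in 10 pairs and the LTR in 10. The internal part minus the LTR ran from -0.58 on the log2 scale for ORR1A0 to 0.65 for MTB_Mm, with a mean of 0.03 and a median of -0.01. In 16 of the 20 pairs both parts were higher after deletion. Across the 20 pairs Spearman's rho between the changes of the LTR and the internal part was 0.29, as a description of families that share both libraries and can share reads.

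**Figure D3:**
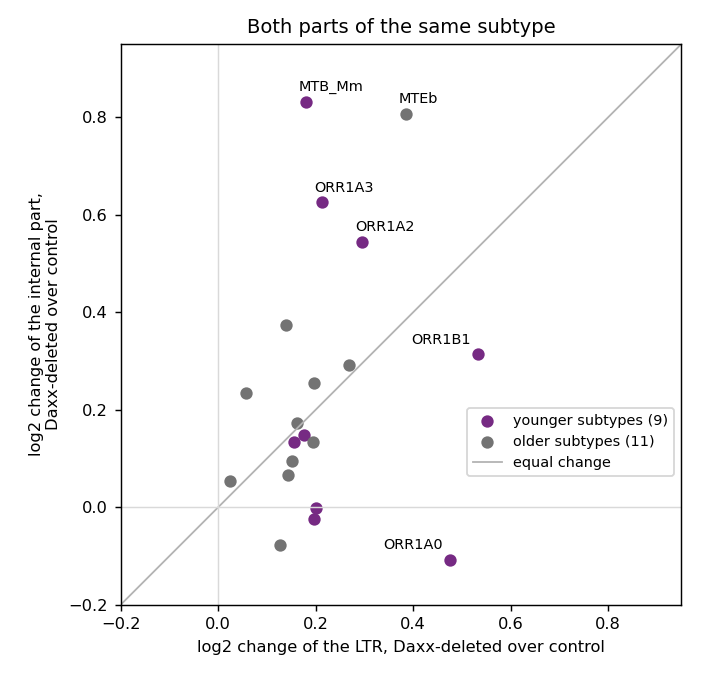
The log2 change of the internal part against that of the LTR of the same name, Daxx-deleted over control, for the 20 pairs with both parts at the floor. Purple points are younger and grey points older subtypes, and the line marks equal change; 10 pairs lie above it and 10 below, with MTB_Mm (0.65) and ORR1A0 (-0.58) farthest from it.

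The level of the internal part relative to its LTR was similar in both libraries in some subtypes and shifted in others. In 9 of all 21 pairs the log2 changes of the parts lay within 0.1 of each other, and in 12 they differed by more. Those 12 include ORR1B2, with a difference of 0.45, whose internal part is outside the floor. Per kilobase, MTB-int stood at 5.0 times the level of MTB in the Daxx-deleted library and 5.11 times in the control. MTE2a-int stood at 3.00 times the level of its LTR in the Daxx-deleted library and 2.94 times in the control, and MTA_Mm-int at 2.62 times in the Daxx-deleted library and 3.02 times in the control. MTD-int was below MTD, at 0.546 of its level in the Daxx-deleted library and 0.541 in the control. ORR1E-int was below ORR1E, at 0.612 of its level in the Daxx-deleted library and 0.584 in the control. Among the shifted pairs, the log2 change of the internal part minus that of the LTR was 0.42 for MTEb and 0.41 for ORR1A3, and -0.20 for MTA_Mm. Of the 21 pairs, 18 had the same part at the higher level in both libraries. The exceptions were MTB_Mm and ORR1A3, where the internal part was above the LTR in the Daxx-deleted library only, and ORR1A1, where it was above in the control only.

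The MT and ORR1 lineages had similar medians. The 19 MT families had a median log2 change of 0.18 and the 24 ORR1 families at the floor had 0.17. Past 1.5-fold were 2 of the 19 MT families and 1 of the 24 ORR1 families. Both shares were below the 15.1% of all families that passed. The summed level was 1.09 RPKM in the Daxx-deleted library and 0.938 RPKM in the control for MT. For ORR1 it was 1.05 RPKM in Daxx-deleted and 0.918 RPKM in control cells.

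Set beside their relatives, the members differed from single families more than from group medians. The rodent members had a median log2 change of 0.18. MaLR families named MLT1, MST or THE1, grouped by name alone and called ancient MaLR here, had 0.19 over 33 families at the floor. The SD across families was 0.20 for the rodent members and 0.46 for the ancient MaLR. The ancient MaLR families had fewer copies, a median of 1073 against 3505, and the part of copy number in their wider spread was not tested. MERVL is a mouse ERVL element that encodes its own enzymes, and MT2_Mm is its LTR. The largest ratio among the 44 MT and ORR1 families was 1.83, and MTA_Mm and ORR1A0, LTRs of the youngest subtypes, had 1.15 and 1.40. MERVL-int had a ratio of 5.11, with 0.101 RPKM in Daxx-deleted and 0.0198 RPKM in control cells, and MT2_Mm had a ratio of 3.03. The remaining 5 MERVL and MT2 families had ratios from 0.978 for MT2B2 to 1.29 for MT2C_Mm, within the range of the rodent MaLR. The median of the MERVL and MT2 group was therefore 0.16, close to the 0.18 of the members. The log2 ratio of summed RPKM was 0.20 for the members and 0.49 for the MERVL and MT2 group. Since reads with several alignments were kept, the families of a lineage may share reads and are not independent.

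**Figure D4:**
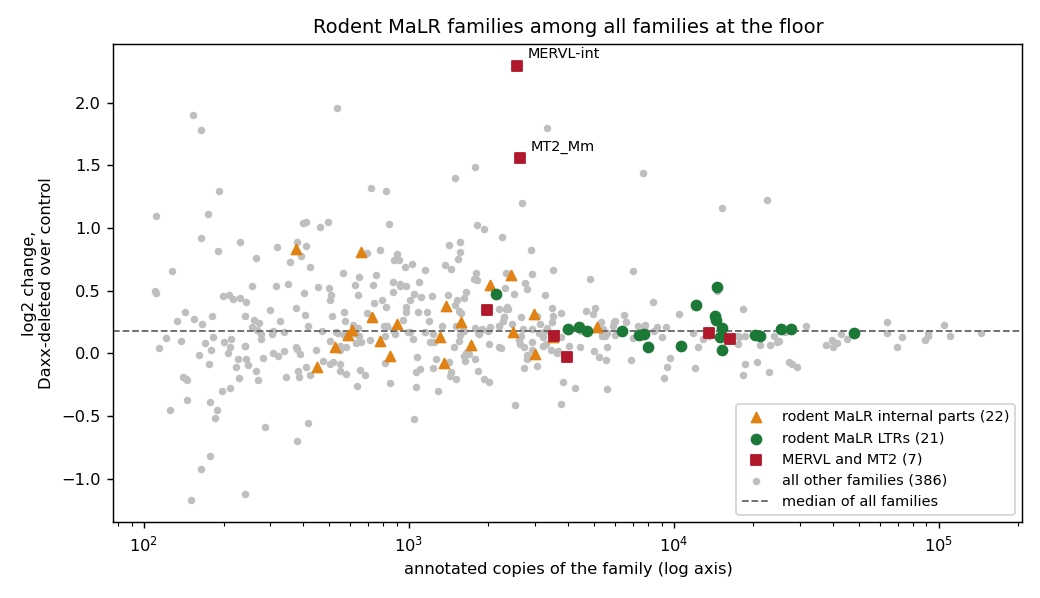
The log2 change of the Daxx-deleted over the control library against the number of annotated copies (log axis) for the 436 families at the floor. Triangles and circles are the rodent MaLR internal parts and LTRs, squares MERVL and MT2 families, small grey points all other families, and the dashed line the median of all families (0.18); MERVL-int and MT2_Mm lie above every MT and ORR1 family.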

How the data were processed

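RNA of 2 ES cell cultures was made into TruSeq RNA libraries, per the labels. Per the info sheet deposited with the table, the authors aligned reads to mm9 using JAGuaR 2.1, a BWA-based aligner, with exon junctions of Ensembl 67; BWA 0.7.10 is also named in the submitters' processing notes. The authors deposited RPKM values per family. These are scaled by exonic reads of protein-coding genes, leaving out mitochondrial genes, ribosomal proteins and the 0.5% most expressed exons. Multi-mapped reads were kept, so related subtypes, or an LTR and its internal part, can hold the same reads. The deposited table also gives a count of annotated copies per family. On the sharing of multi-mapped reads, the use of strand and the repeat annotation, nothing is given in the sources used here. Columns were matched to samples by treatment; 0 columns belonged to other samples.

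The files give no depth. Whole reads were sought in the ratios of 48 low families, and 6 came within 0.1% of a whole-number ratio at the best common scale, so reads were not recovered. With 1 library per group no statistical test was run. The pseudocount was 0.001 RPKM, the floor a mean of 0.01 RPKM with 100 copies, and the thresholds 1.5-fold, 2-fold and a log2 change of 0.32. By rule, every member is named. The members, lists and settings were chosen with earlier results of these data known. The arithmetic of medians and counts, and not the libraries, was tested on simulated data. Other settings tried were a pseudocount of 0.0001, 0.01 or 0.1 RPKM, a floor of 0 or 0.05 RPKM, a minimum of 0 or 1000 copies, subtraction of the median of all families, other age splits, LTRs alone and same-name pairs. No pseudocount and summed RPKM were added after the values were seen. Element sequences were not used here. Python 3.11.15 was used with pandas 2.3.3, numpy 2.4.6 and matplotlib 3.10.9.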

Additional observations from a re-analysis of the deposited data

How the results depend on the processing

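Single libraries give no error, so a median or a difference is counted as moved when it shifted by over 0.1 on the log2 scale, and a count when it shifted by over 1.5-fold. The median log2 change of 0.18 moved to 0.045 with a pseudocount of 0.1 RPKM and to 0.0040 after subtraction of the median of all families, and it stayed within 0.1 under the other 8 settings. The count of 3 members at least 1.5-fold higher became 1 with a pseudocount of 0.01 RPKM (8.49% of all families), 0 with 0.1 RPKM (1.83%), 1 of 8 with a floor of 0.05 RPKM (12.4%), 1 of 33 with at least 1000 copies (12.1%), 0 at 2-fold and 8 past a log2 change of 0.32. It was 2 after subtraction of the median (9.40%). The count of 0 lower members was 0 under every setting run. With the floor of 0.05 RPKM, which left 8 members, younger minus older became -0.29, internal parts minus LTRs -0.23, and rodent minus ancient MaLR 0.17. Of these 8, the only older families were MTE2a-int and MTEb-int, and the only LTRs were MTB and ORR1A0. Rodent MaLR minus MERVL and MT2 became -0.29 with summed RPKM. The main differences were all under 0.1. Their sign changed under 2 of 13 alternatives for age, 4 of 11 for internal parts against LTRs and 2 of 10 for MT against ORR1. It changed under 4 of 10 for ancient MaLR and 2 of 10 for MERVL and MT2. These totals include subtraction of the median, which shifts both sides of a difference equally and so could not change a sign. They also include no minimum of copies, which added no member and left each difference unchanged. Of 215 alternative values of single members, 137 stayed within 0.1 and 78 moved, 43 by subtraction of the median and 31 with a pseudocount of 0.1 RPKM; that fall follows from its size beside the levels. The depth is unknown, so small ratios of families with few copies have no stated precision. No paired analysis was possible because there is 1 library in a group.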
